A study of Mus musculus with 20 samples.

Results

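Antioxidant defence was followed here through 44 genes of glutathione metabolism, the thioredoxin system, detoxification and the pentose phosphate pathway. They were taken from a list of symbols chosen with earlier results of these data known, so counts beside all tested genes only describe this list. It holds the transcription factor gene Nfe2l2 and its inhibitor Keap1, 4 genes of glutathione synthesis and recycling, and 10 of the thioredoxin system and its peroxiredoxins. Also listed are 5 glutathione peroxidases, catalase with 3 superoxide dismutases, 9 glutathione transferases, 5 other detoxification enzymes and 5 enzymes of the pentose phosphate pathway and NADPH supply. All 44 were found among the 47729 genes of the count files. All 44 passed the filter on low counts that left 18731 genes for testing. RNA had been sequenced from mouse kidney cells sorted with magnetic beads for Sca-1, a surface protein encoded by Ly6a, and labelled as mesenchymal stem cell-like. Roxadustat, an anemia drug that inhibits the prolyl hydroxylases of hypoxia-inducible factor (HIF), was compared with no treatment at 3 times. At day 0, cells came straight from mice that had received intraperitoneal roxadustat at 33 mg/kg over 7 days (2 libraries) or from control mice (2 libraries). At day 7 and at day 21, cells had been cultured under 20% oxygen with roxadustat (4 libraries at each day) or as controls (4 libraries at each day). The strain, sex and age of the mice, the concentration in the medium and the source of the cultured roxadustat cells (injected mice or not) are not given in the sources used here. Nor do these sources say whether replicates were separate animals or cultures, so each p-value measures the spread between these libraries, which may be technical.

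NRF2, the protein of Nfe2l2, is held at a low level by KEAP1, which marks it for degradation until oxidants or electrophiles modify KEAP1. Freed NRF2 binds antioxidant response elements with a small MAF partner and activates genes of glutathione synthesis, thioredoxin reduction, conjugation of electrophiles and NADPH production. Peroxidases and peroxiredoxins then remove hydrogen peroxide with electrons that come from NADPH through glutathione or thioredoxin. The kidney tubule, rich in mitochondria, is known for high levels of several of these enzymes.

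Libraries held 8502011 to 19903160 counts. Levels are in CPM, read counts relative to the size of the library, which was scaled by the trimmed mean of M-values (TMM). A level written with ± is the mean ± SD of a group's libraries. Differences are log2 fold changes ± SE of an edgeR quasi-likelihood fit, called at an adjusted p under 0.05 over all 18731 genes. Between treatments, a rise or fall means a level higher or lower than in control cells of the same day. Markers of several cell types were present in the sorted cells. Ly6a had 479 to 525 CPM in roxadustat and 158 to 172 CPM in control libraries at day 7, and was present in all 20 libraries. Summed over 14 proximal tubule markers, levels at day 0 were 29168 to 29898 CPM in roxadustat and 29664 to 30801 CPM in control libraries. In culture this sum was 226 to 236 CPM in roxadustat against 115 to 119 CPM in control libraries at day 7, and 253 to 263 CPM with roxadustat against 118 to 137 CPM in controls at day 21, where 2 of the 14 markers in roxadustat and 5 of the 14 in control cells were at 0. Most of the control sum at day 21 was Ass1, at 105 to 126 CPM in controls and 14.4 to 16.0 CPM with roxadustat. Lrp2 went the other way, with 170 to 178 CPM with roxadustat and 3.30 to 5.91 CPM in controls, as did Cubn and Aqp1. The 9 markers of kidney epithelium summed to 492 to 517 CPM in roxadustat and 214 to 224 CPM in control libraries at day 7, and to 398 to 402 CPM with roxadustat against 15.0 to 18.7 CPM in controls at day 21. The 10 fibroblast markers went the other way, with 6538 to 7597 CPM in roxadustat and 10475 to 11072 CPM in control libraries at day 7, and 2518 to 3762 CPM with roxadustat against 47264 to 50521 CPM in controls at day 21. The 10 macrophage markers summed to 16.9 to 18.7 CPM in roxadustat and 346 to 354 CPM in control libraries at day 7, and to 16.6 to 19.5 CPM with roxadustat against 295 to 347 CPM in controls at day 21. The 8 endothelial markers summed to 38.8 to 47.3 CPM in roxadustat and 91.5 to 98.1 CPM in control libraries at day 7. At day 21 they summed to 92.1 to 99.9 CPM with roxadustat against 313 to 354 CPM in controls. Most of that sum was Flt1, at 70.6 to 74.7 CPM with roxadustat and 246 to 272 CPM in controls. Pecam1 and Cdh5 had at most 0.497 and 0.298 CPM in these libraries. At day 7 Tek, Pecam1 and Cdh5 went the other way, with Tek at 2.76 to 3.59 CPM with roxadustat and 0.259 to 0.725 CPM in controls. In bulk RNA, fewer cells of a type and less RNA per cell cannot be told apart, and the part of these marker differences in the results was not tested. Control libraries at day 21 formed 2 tight pairs, 1 with 2 and 3 with 4. The chi-square per gene was 2.22 and 1.86 within the pairs, against 14.8 to 20.1 between them. The 2 fresh control libraries were further apart (32.7) than the 2 fresh roxadustat libraries (10.7). Among roxadustat libraries at day 21, replicate 2 lay 6.91 to 18.4 from the others, which were 3.34 to 5.85 apart. Among those at day 7, replicate 4 lay 9.65 to 14.7 from the others, which were 2.89 to 4.61 apart. Results at day 21 are given for each control pair alone where a call depends on it.

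Promoter sequences were examined because the NRF2 motif is the feature that many of the listed genes are known to share. RefSeq windows from 250 bases before to 50 bases after a transcription start (GRCm38.p6) were found for 39 of the 44 genes. The core of the antioxidant response element, TGACNNNGC, was searched on both strands together with the NRF2-MAF motif TGANTCAGC, which overlaps the core in part, and the HIF core ACGTG. At least 1 of the first 2 motifs was present in 14 of the 39 genes (35.9%), against 14.7% of all 27025 genes with a window. ACGTG was present in 11 of the 39 (28.2%), against 21.8% of all genes. Among the genes called higher with roxadustat at both culture days, 9 of the 19 with a window held TGACNNNGC or TGANTCAGC, among those called lower at both days 0 of 5, and among the other genes 5 of 15. ACGTG was held by 4 of the 19, 2 of the 5 and 5 of the 15. These numbers are small, and neither split was tested. A match describes these letters only and is not a binding site. Windows of 5 genes, all called higher at both culture days, are shown with every motif match in capitals. In Gclm (chr3:122245307-122245606, plus strand), for the modifier subunit of glutamate-cysteine ligase, TGACNNNGC lies on the reverse strand and ACGTG downstream of it, also on the reverse strand. Txnrd1 (chr10:82858956-82859255, plus strand), for cytosolic thioredoxin reductase, has TGACNNNGC on the reverse strand. Srxn1 (chr2:152105274-152105573, plus strand), for sulfiredoxin, has TGANTCAGC before and TGACNNNGC after the start. G6pdx (chrX:74428831-74429130, minus strand), for glucose-6-phosphate dehydrogenase, has TGACNNNGC before and ACGTG after the start, and in Me1 (chr9:86695865-86696164, minus strand), for cytosolic malic enzyme, a single stretch matches both NRF2 motifs at the start. RefSeq gives Txnrd1 3 windows and Me1 2, and the window with an NRF2 motif is shown. The other 2 windows of Txnrd1 hold none of the 3 motifs, and the other window of Me1 holds ACGTG. Each window reads 5′ to 3′ on the strand of its gene.
Gclm: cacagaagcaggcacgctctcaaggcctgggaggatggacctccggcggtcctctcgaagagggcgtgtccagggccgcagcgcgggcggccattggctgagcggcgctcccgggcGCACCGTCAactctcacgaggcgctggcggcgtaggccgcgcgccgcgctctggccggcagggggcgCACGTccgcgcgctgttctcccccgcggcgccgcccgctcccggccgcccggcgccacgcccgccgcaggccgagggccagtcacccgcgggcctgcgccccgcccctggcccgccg
Txnrd1: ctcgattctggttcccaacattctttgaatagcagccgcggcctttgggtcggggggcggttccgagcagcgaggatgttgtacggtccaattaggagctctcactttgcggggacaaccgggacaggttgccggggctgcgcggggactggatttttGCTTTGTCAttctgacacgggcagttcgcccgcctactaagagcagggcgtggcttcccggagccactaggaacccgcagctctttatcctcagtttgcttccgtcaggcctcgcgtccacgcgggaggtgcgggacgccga
Srxn1: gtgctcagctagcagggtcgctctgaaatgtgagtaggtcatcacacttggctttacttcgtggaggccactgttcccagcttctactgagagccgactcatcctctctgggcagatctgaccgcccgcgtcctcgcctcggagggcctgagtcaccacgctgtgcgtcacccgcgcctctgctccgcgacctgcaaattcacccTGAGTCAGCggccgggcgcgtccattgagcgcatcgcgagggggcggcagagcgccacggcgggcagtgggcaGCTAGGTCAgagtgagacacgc
G6pdx: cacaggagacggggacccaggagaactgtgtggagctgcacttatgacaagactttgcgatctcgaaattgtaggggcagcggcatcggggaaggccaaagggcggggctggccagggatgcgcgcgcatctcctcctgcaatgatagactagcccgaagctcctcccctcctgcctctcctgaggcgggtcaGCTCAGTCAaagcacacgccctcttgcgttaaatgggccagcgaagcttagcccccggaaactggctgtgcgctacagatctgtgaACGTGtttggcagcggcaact
Me1: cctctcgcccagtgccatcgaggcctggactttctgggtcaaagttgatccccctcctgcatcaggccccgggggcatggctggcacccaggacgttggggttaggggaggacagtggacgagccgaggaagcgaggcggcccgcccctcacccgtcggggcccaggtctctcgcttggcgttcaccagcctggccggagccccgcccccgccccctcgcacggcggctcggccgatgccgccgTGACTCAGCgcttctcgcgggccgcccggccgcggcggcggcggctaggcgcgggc

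Cultured roxadustat cells had higher levels of most of these genes than cultured control cells. At day 7, 27 of the 44 were higher and 5 lower in roxadustat cells, where 24.1% and 23.6% of all tested genes were called higher and lower. At day 21, 24 were higher and 13 lower, against 30.0% and 32.9% of all tested genes. The median log2 fold change of the 44 was 0.00 at day 0, 0.60 at day 7 and 0.22 at day 21, beside medians of -0.01, 0.03 and 0.00 over all tested genes. In freshly isolated cells 3 were higher and 1 lower, against 2.73% and 4.11% of all tested genes. The summed level of the 44 genes was 9985 to 10756 CPM in roxadustat and 6081 to 6279 CPM in control libraries at day 7, and 8200 to 8339 CPM with roxadustat against 4393 to 4983 CPM in controls at day 21. The sums of fresh cells, 15673 and 17410 CPM in roxadustat and 17261 and 18021 CPM in control libraries, overlapped. Of the 44, 22 were called higher and 5 lower with roxadustat at both culture days, against 15.7% of all tested genes higher at both and 15.7% lower at both. When libraries were scaled by their total counts alone, the median gene at day 21 lay 0.34 higher on the log2 scale in roxadustat cells, and 33 members were called higher and 7 lower. The signs of Keap1, Txn1, Prdx3, Sod2 and Cbr3 at day 21 turn under that scaling, with values that all lie below this median. With control replicates 1 and 2 alone 22 were higher and 15 lower at day 21, and with replicates 3 and 4 alone 25 were higher and 9 lower.

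**Figure D1:**
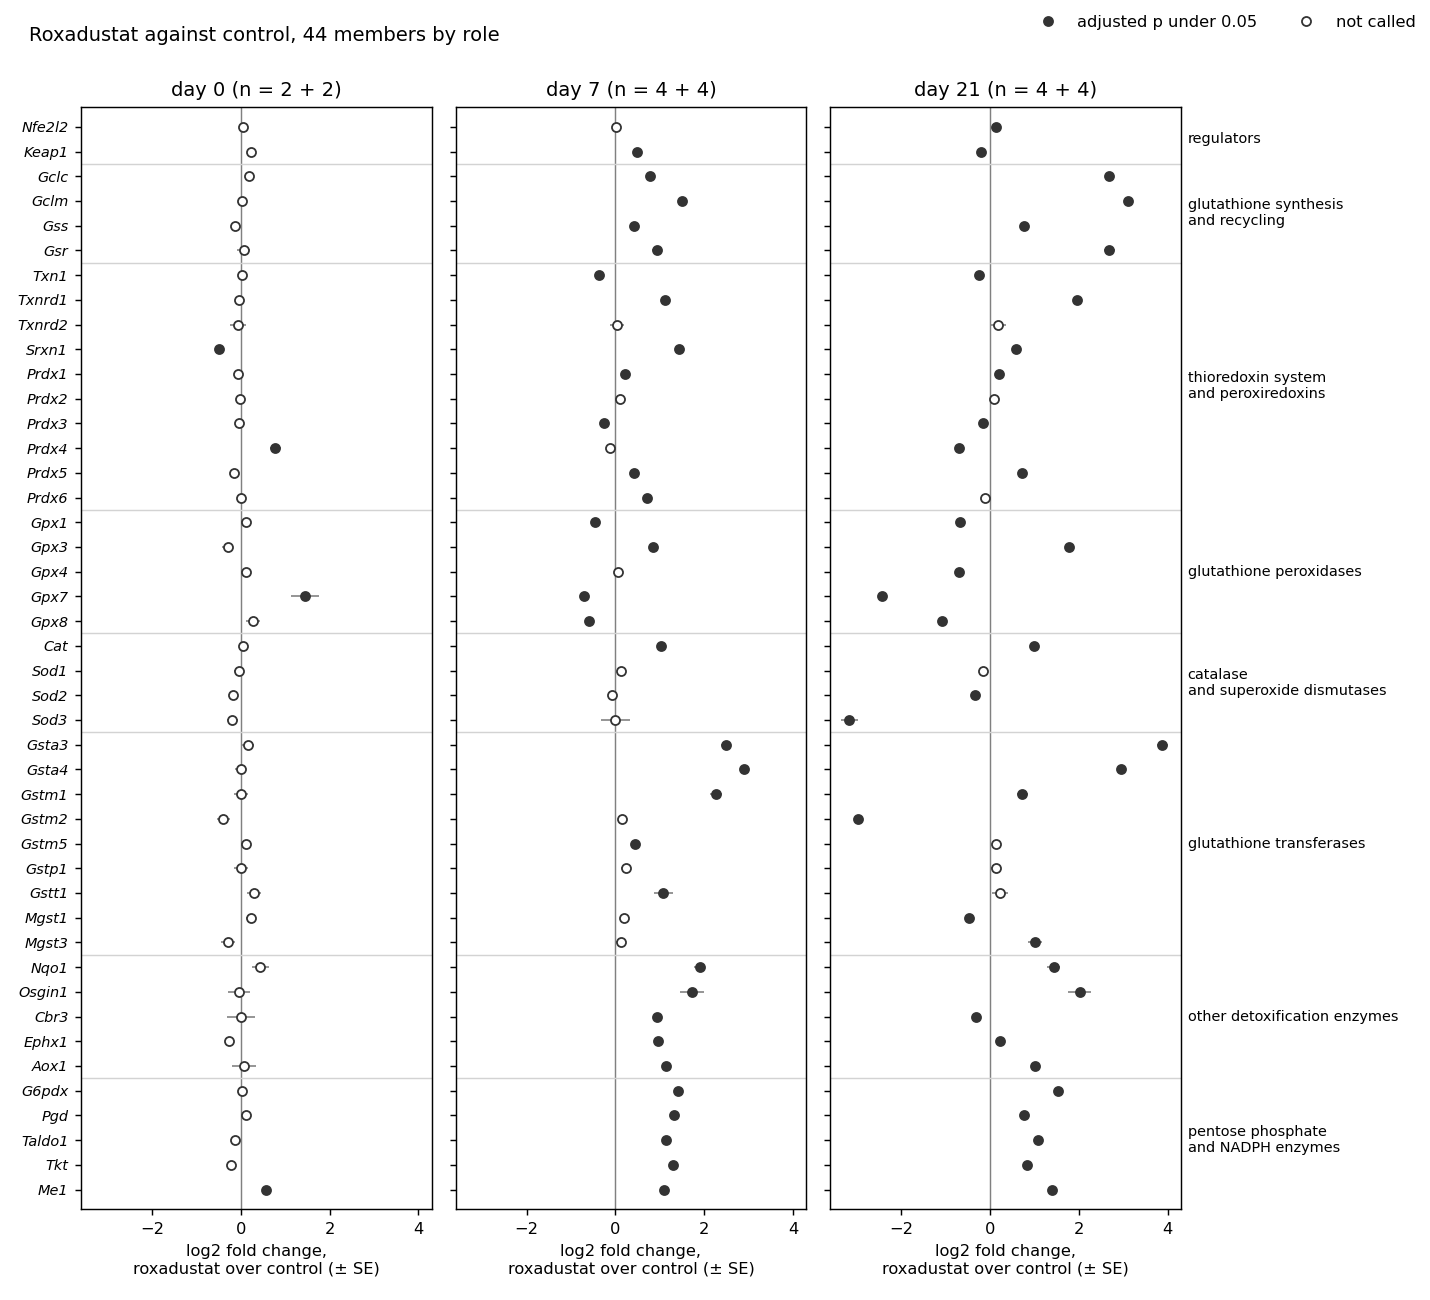
Log2 fold changes of roxadustat over control (x axis, with SE as bars) for the 44 genes (y axis, by role) at day 0, day 7 and day 21. Filled points passed an adjusted p of 0.05 and open points did not. Glutathione synthesis and the pentose phosphate and NADPH enzymes lie right of 0 at both culture days, glutathione peroxidases on both sides.

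Of the sensor pair that controls the pathway, Nfe2l2 was called at day 21 with a small difference, and Keap1 in opposite directions at the culture days. Nfe2l2 (ENSMUSG00000015839, chromosome 2, 75675513 to 75704641, minus strand, GRCm38) had 231, 215, 222 and 221 CPM in roxadustat libraries at day 7, against 220.4, 218, 224 and 224 CPM in control libraries. These groups overlapped, with a log2 fold change of 0.00 ± 0.04 (adjusted p = 0.97). Its levels at day 21 were 194, 188, 194 and 202 CPM with roxadustat and 185, 177, 171 and 172 CPM in control libraries, higher by 0.14 ± 0.04 (adjusted p = 0.00779). That call ended with control replicates 1 and 2 alone (0.10, adjusted p = 0.100) and without the filter on low counts (adjusted p = 0.193). Fresh cells had 185 and 186 CPM with roxadustat and 174 and 187 CPM without it, which was not called. Keap1 (ENSMUSG00000003308, chromosome 9, 21229730 to 21239361, minus strand) was higher at day 7 and lower at day 21. Its level was 56.6, 52.6, 55.4 and 51.8 CPM with roxadustat and 37.6, 39.5, 38.9 and 38.4 CPM in control libraries at day 7, with no overlap and a log2 fold change of 0.49 ± 0.06 (adjusted p = 3.77e-08). At day 21 the gene had 45.8, 45.7, 48.5 and 45.5 CPM with roxadustat and 57.7, 55.2, 51.5 and 49.3 CPM in control libraries, lower by 0.21 ± 0.06 on the log2 scale (adjusted p = 0.00241). This fall was -0.12 with control replicates 3 and 4 alone (adjusted p = 0.108) and turned to 0.14 under scaling by total counts. At day 0 it had 46.4 and 45.5 CPM with roxadustat and 37.4 and 41.2 CPM in control libraries and was not called (adjusted p = 0.106). Of the exon bases of Keap1, 10.9% overlap a gene on the other strand (Gm16754), whose reads a non-stranded library cannot separate.

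Genes of glutathione synthesis and recycling were together higher in roxadustat than in control cells. At day 7 and at day 21, 4 of 4 were higher, beside 24.1% and 30.0% of all tested genes. Their median log2 fold change was 0.86 at day 7 and 2.69 at day 21, and none was called at day 0. Gclc encodes the catalytic subunit of glutamate-cysteine ligase, the rate-limiting enzyme of glutathione synthesis (ENSMUSG00000032350, chromosome 9, 77754535 to 77794485, plus strand). Its level at day 7 was 363, 352, 349 and 339 CPM with roxadustat and 212, 205, 198 and 198 CPM in control libraries. Later, at day 21, it had 449, 469, 456 and 451 CPM with roxadustat and 68.7, 74.4, 69.9 and 70.2 CPM in control libraries. Every roxadustat library lay above every control library at both days, and the difference was 1.73-fold at day 7 (0.79 ± 0.07, adjusted p = 8.82e-11) and 6.44-fold at day 21 (2.69 ± 0.07, adjusted p = 1.62e-22). Fresh cells had 567 and 409 CPM with roxadustat and 458 and 404 CPM without it, and these overlapped. Gclm, for the modifier subunit (ENSMUSG00000028124, chromosome 3, 122245557 to 122270732, plus strand), had 346, 355, 343 and 334 CPM with roxadustat and 121, 124, 117 and 123 CPM in control libraries at day 7. At day 21 it had 495, 502, 486 and 481 CPM with roxadustat and 53.7, 55.3, 60.4 and 58.4 CPM in control libraries, 8.63-fold apart (3.11 ± 0.07, adjusted p = 1.13e-23). All roxadustat libraries at day 21 lay above all fresh libraries, which had 343 and 322 CPM with roxadustat and 269 and 379 CPM without it, a difference that was not tested. Gsr, for the reductase that regenerates glutathione with NADPH (ENSMUSG00000031584, chromosome 8, 33652523 to 33698163, plus strand), had 431, 416, 414 and 392 CPM with roxadustat and 220.4, 222, 218 and 209 CPM in control libraries at day 7. Its levels at day 21 were 318, 344, 333 and 329.6 CPM with roxadustat and 53.8, 53.8, 51.8 and 45.9 CPM in control libraries, 6.45-fold apart (2.69 ± 0.12, adjusted p = 1.38e-13). The 2 fresh control libraries differed widely in Gsr, at 245 and 428 CPM, beside 365 and 337 CPM with roxadustat. Gss, for glutathione synthetase, rose least, with 104 ± 4.00 CPM with roxadustat and 77.1 ± 1.32 CPM in controls at day 7 and 73.9 ± 3.74 CPM with roxadustat against 43.1 ± 2.52 CPM in controls at day 21 (mean ± SD, n = 4 each). Of the exon bases of Gss, 15.4% overlap genes on the other strand (Acss2, Gssos2 and Gssos1), so its counts may hold their reads. In roxadustat cells 2 of the 4 were lower and none higher at day 7 against day 0, beside 37.6% and 37.1% of all tested genes. Gclc had 339 to 363 CPM at day 7 and 567 and 409 CPM in fresh roxadustat cells. Gss had 99.6 to 109 CPM at day 7 and 243 and 239 CPM in fresh roxadustat cells. At day 21 against day 7, 2 were higher and 2 lower, beside 28.6% and 32.9%. In control cells all 4 genes were lower at day 7 against day 0 and at day 21 against day 7, beside 39.5% and 34.3% of all tested genes. The mean of Gclc in control cells was 431 CPM at day 0, 203 CPM at day 7 and 70.8 CPM at day 21. The epithelial marker sum differed in the same direction as these genes, at 398 to 402 CPM in roxadustat and 15.0 to 18.7 CPM in control libraries at day 21, and its part in their differences was not tested.

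All 5 enzymes of the pentose phosphate pathway and NADPH supply were also higher in roxadustat cells at both culture days. Of all tested genes 24.1% were higher at day 7 and 30.0% at day 21. The median log2 fold change of the 5 was 1.30 at day 7 and 1.09 at day 21. G6pdx, for the entry enzyme of the oxidative pentose phosphate branch (ENSMUSG00000031400, chromosome X, 74409483 to 74429194, minus strand), had 208, 211, 198 and 207 CPM with roxadustat and 80.1, 73.2, 81.1 and 75.0 CPM in control libraries at day 7. At day 21 the gene had 171, 160.0, 177 and 168 CPM with roxadustat and 62.9, 60.9, 53.9 and 55.8 CPM in control libraries. No groups overlapped in culture, and the difference was 2.66-fold at day 7 (1.41 ± 0.06, adjusted p = 1.7e-17) and 2.89-fold at day 21 (1.53 ± 0.06, adjusted p = 6.91e-19). Fresh cells had 34.6 and 29.2 CPM with roxadustat and 31.3 and 31.6 CPM without it. The oxidative branch continues with Pgd, for phosphogluconate dehydrogenase, at 352 ± 16.3 CPM with roxadustat and 140.4 ± 6.75 CPM in controls at day 7 (1.32 ± 0.06) and 251 ± 15.6 CPM with roxadustat against 148 ± 7.87 CPM in controls at day 21 (0.76 ± 0.06; mean ± SD, n = 4 each). The non-oxidative branch is represented by Tkt (transketolase) and Taldo1 (transaldolase), which return pentoses to glycolysis. Tkt had 1016 ± 31.2 CPM with roxadustat and 414 ± 6.81 CPM in controls at day 7 (1.30 ± 0.05), and 538 ± 14.9 CPM with roxadustat against 301 ± 16.7 CPM in controls at day 21 (0.84 ± 0.05). Taldo1 was 2.19-fold higher at day 7 and 2.13-fold higher at day 21. Me1, for cytosolic malic enzyme, which makes NADPH from malate (ENSMUSG00000032418, chromosome 9, 86581371 to 86695953, minus strand), was the member of this role that was also called in fresh cells. It had 382 and 396 CPM with roxadustat and 245 and 282 CPM in control libraries at day 0, 118, 119, 110.0 and 122 CPM with roxadustat against 49.3, 59.4, 56.0 and 54.8 CPM in controls at day 7, and 187, 197, 182 and 175 CPM with roxadustat against 68.7, 65.1, 73.7 and 74.8 CPM in controls at day 21. Roxadustat libraries lay above control libraries at each of the 3 times, by 0.56 ± 0.08, 1.09 ± 0.06 and 1.39 ± 0.06 on the log2 scale (adjusted p = 5.72e-05, 2.69e-14 and 2.29e-17). The call at day 0 was lost when the 4 fresh libraries were fitted alone (adjusted p = 0.140). Of the exon bases of G6pdx 13.6% overlap Ikbkg on the other strand, and G6pdx has an intronless copy elsewhere in the mouse genome, so its counts may hold reads of other genes.

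**Figure D2:**
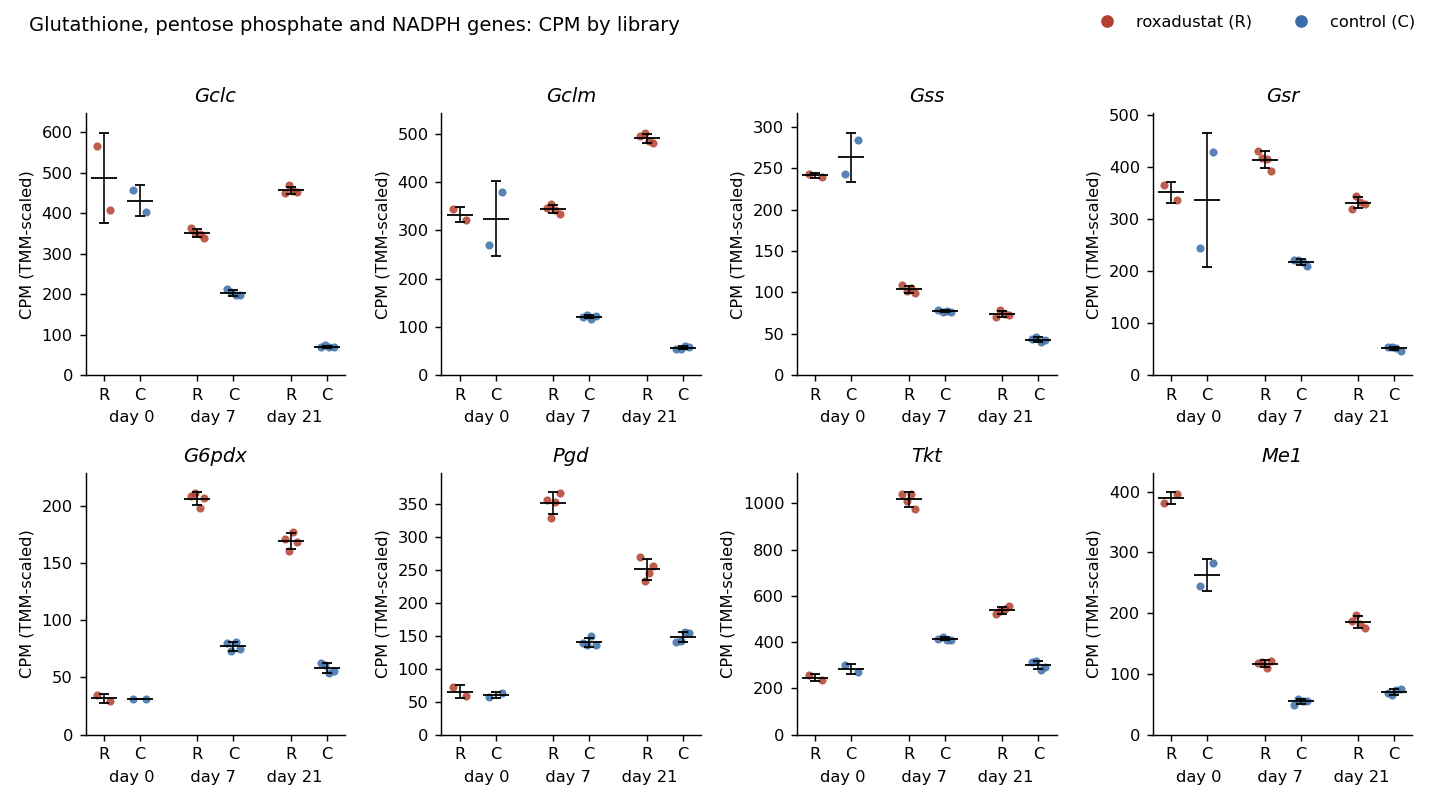
CPM by library (points), with mean and SD (black), of 4 genes of glutathione synthesis and recycling (upper row) and 4 pentose phosphate and NADPH enzymes (lower row), in roxadustat (R) and control (C) cells at day 0, day 7 and day 21. Roxadustat libraries lie above control libraries in culture for all 8 genes, as with Gclm at 495, 502, 486 and 481 against 53.7, 55.3, 60.4 and 58.4 CPM at day 21.

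In the thioredoxin system the reductase and the repair enzyme rose, while thioredoxin itself fell. Txnrd1 (ENSMUSG00000020250, chromosome 10, 82833951 to 82897712, plus strand), which keeps thioredoxin reduced with NADPH, had 1051 ± 43.4 CPM with roxadustat and 482 ± 3.51 CPM in controls at day 7 (1.12 ± 0.06, adjusted p = 3.48e-15). Later, at day 21, it had 1005 ± 45.7 CPM with roxadustat and 259.5 ± 4.37 CPM in controls (1.95 ± 0.06, adjusted p = 3.84e-21; mean ± SD, n = 4 each). Its mitochondrial counterpart Txnrd2 had 2.71 ± 0.141 CPM with roxadustat and 2.65 ± 0.462 CPM in controls at day 7 and was not called between treatments at any time. Under scaling by total counts it was called higher at day 21 (0.53, adjusted p = 0.0110). It fell in culture in both arms, with log2 fold changes of -1.45 ± 0.17 in roxadustat and -1.55 ± 0.17 in control cells at day 7 against day 0. Srxn1, for sulfiredoxin, which restores over-oxidised peroxiredoxins (ENSMUSG00000032802, chromosome 2, 152105516 to 152111376, plus strand), had 372, 340.4, 361 and 326 CPM with roxadustat and 134, 125, 132 and 132 CPM in control libraries at day 7. At day 21 it had 209.8, 227, 212 and 221 CPM with roxadustat and 152, 148, 139 and 143 CPM in control libraries. The groups were separate at both days, with log2 fold changes of 1.42 ± 0.05 at day 7 and 0.58 ± 0.05 at day 21. Thioredoxin, Txn1 (ENSMUSG00000028367, chromosome 4, 57943373 to 57956411, minus strand), had 245, 239, 228 and 221 CPM with roxadustat and 326, 288, 307 and 287 CPM in control libraries at day 7, lower by 0.37 ± 0.07 on the log2 scale (adjusted p = 3.23e-05). Its levels at day 21 were 108, 105, 109.6 and 120.4 CPM with roxadustat and 149, 141, 115 and 119.6 CPM in control libraries, which overlapped, and the fall of 0.25 (adjusted p = 0.00269) was not called with control replicates 3 and 4 alone (adjusted p = 0.283) or with the groups at day 21 fitted alone (adjusted p = 0.0537).

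The 6 peroxiredoxins, which reduce hydrogen peroxide through reactive cysteines, split by member. Prdx6, which draws on glutathione and has a single reactive cysteine, was higher at day 7, with 529 ± 18.6 CPM with roxadustat and 323 ± 11.6 CPM in controls (0.71 ± 0.06, adjusted p = 9.48e-11). At day 21 the gene had 398 ± 13.2 CPM with roxadustat and 431 ± 34.1 CPM in controls and was not called (adjusted p = 0.0976), and under scaling by total counts it was called higher (0.23). Prdx5, of mitochondria and peroxisomes, had 219 ± 9.10 CPM with roxadustat and 164 ± 3.25 CPM in controls at day 7 (0.42 ± 0.06) and 213 ± 11.6 CPM with roxadustat against 129 ± 16.4 CPM in controls at day 21 (0.72 ± 0.07); 19.1% of its exon bases overlap Trmt112. Prdx1, of the cytosol, was higher by 0.23 ± 0.06 at day 7 and 0.21 ± 0.06 at day 21, the second not called with control replicates 1 and 2 alone (0.11, adjusted p = 0.157). Prdx2, also cytosolic, with 11.5% of its exon bases overlapping Rnaseh2a and Junb on the other strand, was not called at any time between treatments. It was called higher at day 21 under scaling by total counts (0.45, adjusted p = 8.45e-06), under upper quartile scaling (0.18, adjusted p = 0.0300) and with control replicates 3 and 4 alone (0.22, adjusted p = 0.0142). Prdx3, of mitochondria, was lower by 0.26 ± 0.06 at day 7 (adjusted p = 0.00081). Its fall of 0.17 at day 21 (adjusted p = 0.025) ended without roxadustat replicate 1 (adjusted p = 0.0833), without control replicate 1 (0.121) or 2 (0.0859), with control replicates 3 and 4 alone (0.608) and with the groups at day 21 fitted alone (0.185). It turned to 0.18 under scaling by total counts. Prdx4, of the endoplasmic reticulum (ENSMUSG00000025289, chromosome X, 155323918 to 155340754, minus strand), had 35.8, 44.7, 40.8 and 39.3 CPM with roxadustat and 73.7, 71.1, 57.1 and 60.3 CPM in control libraries at day 21, lower by 0.71 ± 0.08 (adjusted p = 5.85e-09). At day 7 it had 80.3, 80.4, 78.1 and 71.7 CPM with roxadustat and 79.3, 87.5, 86.3 and 85.1 CPM in control libraries, which overlapped and were not called.

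Glutathione transferases, which couple glutathione to electrophiles, included the largest rises of the whole set. At day 7, 5 of 9 were higher (55.6%) and none lower, beside 24.1% and 23.6% of all tested genes. At day 21, 4 were higher (44.4%) and 2 lower (22.2%), beside 30.0% and 32.9%. Gsta4, which conjugates the lipid peroxidation product hydroxynonenal (ENSMUSG00000032348, chromosome 9, 78182774 to 78209349, plus strand), had 335, 320.2, 286 and 309.9 CPM with roxadustat and 41.5, 40.5, 45.0 and 41.7 CPM in control libraries at day 7. Later, at day 21, it had 147, 177, 167 and 167 CPM with roxadustat and 22.4, 23.1, 17.9 and 21.6 CPM in control libraries. The difference was 7.42-fold at day 7 (2.89 ± 0.09, adjusted p = 1.16e-17) and 7.71-fold at day 21 (2.95 ± 0.10, adjusted p = 3.38e-18), while fresh cells had 40.0 and 31.7 CPM with roxadustat and 42.0 and 30.3 CPM without it. Gsta3, another alpha class enzyme (ENSMUSG00000025934, chromosome 1, 21240589 to 21265661, plus strand), had 89.5, 85.7, 82.7 and 80.7 CPM with roxadustat and 15.7, 14.7, 14.1 and 16.2 CPM in control libraries at day 7. At day 21 it had 97.5, 115, 102 and 101 CPM with roxadustat and 8.04, 6.90, 6.71 and 6.32 CPM in control libraries. Here the fold grew with time, 5.59-fold at day 7 (2.48 ± 0.11) and 14.8-fold at day 21 (3.89 ± 0.12, adjusted p = 4.64e-18). Fresh cells held Gsta3 at 104 and 64.8 CPM with roxadustat and 78.3 and 72.6 CPM without it, near the level of cultured roxadustat cells.

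The mu class, a cluster of closely related genes on chromosome 3, did not move as a block. Gstm1 (ENSMUSG00000058135, 108012255 to 108017973, minus strand) had 119, 109, 114 and 117 CPM with roxadustat and 25.8, 22.6, 24.4 and 22.8 CPM in control libraries at day 7, 4.81-fold apart (2.26 ± 0.13, adjusted p = 2.71e-11). Its levels at day 21 were 55.7, 47.8, 59.4 and 62.6 CPM with roxadustat and 40.2, 36.1, 30.3 and 29.3 CPM in control libraries, still separate at 0.73 ± 0.13 (adjusted p = 5.79e-05). Gstm2 (ENSMUSG00000040562, 107981702 to 107986453, minus strand) had 21.6, 17.3, 18.3 and 16.2 CPM with roxadustat and 18.1, 15.1, 17.5 and 15.6 CPM in control libraries at day 7, which overlapped and were not called. At day 21 the gene had 5.03, 5.995, 6.46 and 6.34 CPM with roxadustat and 51.6, 51.1, 40.8 and 41.9 CPM in control libraries, 7.80-fold lower in roxadustat cells (-2.96 ± 0.11, adjusted p = 2.4e-19). Gstm5 was higher by 0.45 ± 0.08 at day 7 and not called at day 21, and 13.9% of its exon bases overlap 4933431E20Rik on the other strand. Reads that fit several mu class genes, or the alpha class genes beyond those listed, may have been split or dropped in the counting, so single members are uncertain. Gstt1, of the theta class, was higher at day 7 at a low level, 4.48 ± 0.508 CPM with roxadustat and 2.13 ± 0.29 CPM in controls, and not called at day 21. Of the membrane-bound enzymes, Mgst3 was higher at day 21 (1.01 ± 0.15) and Mgst1 lower (-0.48 ± 0.08), the second not called under scaling by total counts (adjusted p = 0.168), and neither was called at day 7. Gstp1, of the pi class, was not called between treatments at any time, with 0.23 ± 0.10 at day 7 (adjusted p = 0.0638). It was called higher at day 7 under scaling by total counts (0.30, adjusted p = 0.0194), without the filter (0.22, adjusted p = 0.0401) with the groups at day 7 fitted alone (0.22, adjusted p = 0.00775) and in several fits with a library left out. Scaling by total counts called it higher at day 21 too (0.48, adjusted p = 0.000688).

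Among the other detoxification enzymes, 5 of 5 were higher at day 7, beside 24.1% of all tested genes. At day 21, 4 were higher (80.0%) and 1 lower (20.0%), beside 30.0% and 32.9% of all tested genes. Nqo1, for NAD(P)H quinone dehydrogenase 1, a quinone reductase long used as a readout of NRF2 (ENSMUSG00000003849, chromosome 8, 107388225 to 107403206, minus strand), had 144, 132, 129 and 124 CPM with roxadustat and 33.5, 36.9, 37.5 and 34.5 CPM in control libraries at day 7. Later, at day 21, it had 56.1, 64.7, 62.5 and 63.2 CPM with roxadustat and 25.2, 25.0, 18.8 and 21.8 CPM in control libraries. It was 3.72-fold higher at day 7 (1.89 ± 0.13, adjusted p = 1.09e-09) and 2.70-fold at day 21 (1.43 ± 0.14, adjusted p = 5.37e-08), with no overlap. Fresh libraries ranged widely, 86.2 and 55.1 CPM with roxadustat and 41.5 and 63.1 CPM without it, and were not called (adjusted p = 0.195). Osgin1, an oxidative stress-induced growth inhibitor, had 8.57 ± 1.52 CPM with roxadustat and 2.62 ± 0.727 CPM in controls at day 7 (1.72 ± 0.28) and 15.6 ± 2.11 CPM with roxadustat against 3.87 ± 0.543 CPM in controls at day 21 (2.02 ± 0.26). Aox1, for aldehyde oxidase, had 44.9 ± 2.22 CPM with roxadustat and 20.4 ± 1.59 CPM in controls at day 7 (1.14 ± 0.06) and 80.2 ± 2.27 CPM with roxadustat against 39.5 ± 2.31 CPM in controls at day 21 (1.02 ± 0.06). Ephx1, for microsomal epoxide hydrolase, was higher by 0.95 ± 0.05 at day 7 and by 0.22 ± 0.05 at day 21. Cbr3, a carbonyl reductase, turned round: it had 34.4 ± 2.09 CPM with roxadustat and 17.8 ± 2.40 CPM in controls at day 7 (0.95 ± 0.09), but 20.4 ± 1.27 CPM with roxadustat against 25.2 ± 2.47 CPM in controls at day 21 (-0.31 ± 0.09, adjusted p = 0.00418). Its fall at day 21 was not called with control replicates 3 and 4 alone (adjusted p = 0.0822) and was 0.04 under scaling by total counts.

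**Figure D3:**
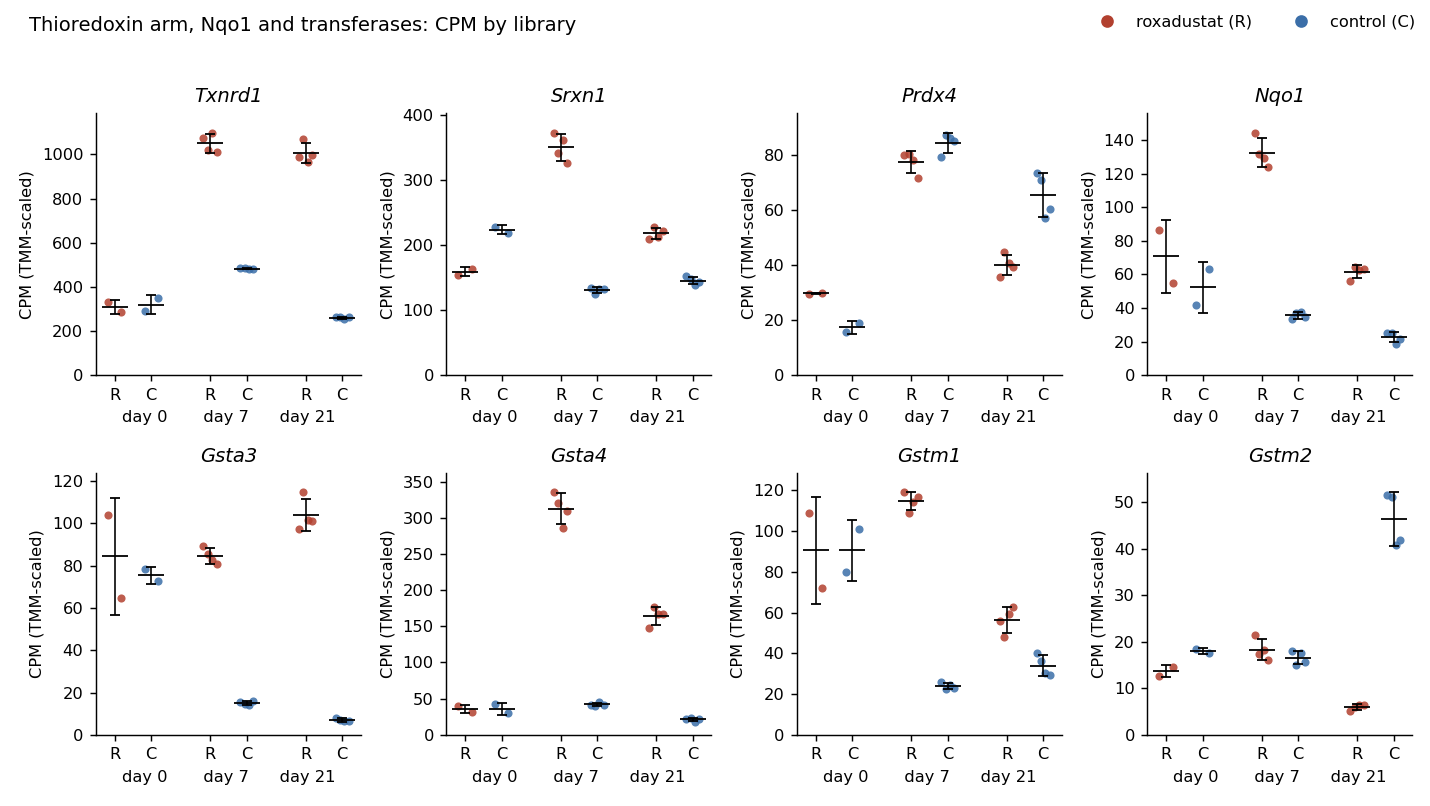
CPM by library (points), with mean and SD (black), of Txnrd1, Srxn1, Prdx4 and Nqo1 (upper row) and 4 glutathione transferases (lower row), in roxadustat (R) and control (C) cells at day 0, day 7 and day 21. Gsta3 and Gsta4 separate widely in culture, whereas Gstm2 at day 21 is higher in control libraries, at 5.03, 5.995, 6.46 and 6.34 CPM with roxadustat against 51.6, 51.1, 40.8 and 41.9 CPM.

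Glutathione peroxidases, which use glutathione to reduce peroxides, were mostly lower with roxadustat. At day 7, 1 of 5 was higher (20.0%) and 3 lower (60.0%), beside 24.1% and 23.6% of all tested genes. At day 21, 1 was higher (20.0%) and 4 lower (80.0%), beside 30.0% and 32.9%. The member that rose was Gpx3, the secreted plasma enzyme made mainly by the proximal tubule (ENSMUSG00000018339, chromosome 11, 54902453 to 54910377, plus strand). It had 916 ± 45.4 CPM with roxadustat and 512 ± 9.56 CPM in controls at day 7 (0.84 ± 0.09, adjusted p = 1.7e-08), and 959 ± 158 CPM with roxadustat against 277 ± 2.88 CPM in controls at day 21 (1.79 ± 0.09, adjusted p = 4.26e-15; mean ± SD, n = 4 each). Proximal tubule markers summed to 226 to 236 CPM in roxadustat and 115 to 119 CPM in control libraries at day 7. Most of this sum was Lrp2, at 163 to 176 CPM with roxadustat and 61.5 to 65.8 CPM in controls. Ass1 went the other way, at 20.1 to 23.3 CPM with roxadustat and 33.4 to 36.3 CPM in controls. The part of these markers in the Gpx3 difference was not tested. Gpx1, the abundant cytosolic enzyme (ENSMUSG00000063856, chromosome 9, 108338903 to 108340343, plus strand), had 303, 291, 280.0 and 276 CPM with roxadustat and 364, 408, 419 and 379.5 CPM in control libraries at day 7. At day 21 it had 197, 222, 209 and 211 CPM with roxadustat and 365, 349, 311 and 316 CPM in control libraries. Every roxadustat library was below every control library, by 0.45 ± 0.06 at day 7 and 0.68 ± 0.06 at day 21 (adjusted p = 1.3e-06 and 4.81e-10). Gpx7 and Gpx8, which act in the endoplasmic reticulum during protein folding, fell further. Gpx7 (ENSMUSG00000028597, chromosome 4, 108400390 to 108406961, minus strand) had 25.3, 24.8, 22.1 and 21.6 CPM with roxadustat and 36.6, 36.6, 42.7 and 37.4 CPM in control libraries at day 7. Its levels at day 21 were 9.05, 9.88, 9.94 and 10.2 CPM with roxadustat and 57.1, 54.8, 49.2 and 49.5 CPM in control libraries, 5.38-fold lower in roxadustat cells (-2.43 ± 0.09, adjusted p = 5.73e-19). Gpx8 (ENSMUSG00000021760, chromosome 13, 113042753 to 113046410, minus strand) had 124, 126, 114 and 114 CPM with roxadustat and 173, 179, 193 and 181 CPM in control libraries at day 7 (-0.60 ± 0.08). At day 21 the gene had 78.8, 90.9, 78.6 and 83.0 CPM with roxadustat and 199, 187, 156 and 161 CPM in control libraries (-1.08 ± 0.08, adjusted p = 5.85e-11). The fibroblast marker sum was lower in roxadustat libraries too, at 2518 to 3762 CPM against 47264 to 50521 CPM in control libraries at day 21, and its part in the falls of Gpx7 and Gpx8 was not tested. Gpx4, which reduces lipid hydroperoxides in membranes, had 51.8 ± 1.24 CPM with roxadustat and 49.9 ± 2.72 CPM in controls at day 7, not called, and 35.4 ± 2.20 CPM with roxadustat against 57.7 ± 4.71 CPM in controls at day 21 (-0.70 ± 0.07, adjusted p = 2.23e-10).

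Catalase, the peroxisomal enzyme that splits hydrogen peroxide without NADPH, was higher in culture, whereas no superoxide dismutase was higher at any time. Cat had 362 ± 8.61 CPM with roxadustat and 179 ± 3.87 CPM in controls at day 7 (1.02 ± 0.06, adjusted p = 1.54e-13), and 303 ± 5.75 CPM with roxadustat against 151 ± 7.59 CPM in controls at day 21 (1.00 ± 0.06, adjusted p = 7.27e-14). Sod1, the cytosolic dismutase, was not called at day 7 (0.12 ± 0.07) or at day 21 (-0.16 ± 0.07, adjusted p = 0.0664), where scaling by total counts called it higher (0.19) and control replicates 1 and 2 alone called it lower (-0.32). Sod2, of the mitochondrial matrix, was not called at day 7 and was lower at day 21, at 41.7 ± 2.43 CPM with roxadustat and 52.8 ± 3.05 CPM in controls (-0.34 ± 0.06, adjusted p = 1.38e-05), a difference of 0.0062 under scaling by total counts. Sod3, the extracellular dismutase (ENSMUSG00000072941, chromosome 5, 52363791 to 52371418, plus strand), had 88.0 and 80.6 CPM with roxadustat and 91.6 and 101 CPM in control libraries at day 0. It was nearly lost in culture, with 0.336, 0.472, 0.545 and 0.678 CPM with roxadustat and 0.388, 0.279, 0.703 and 0.644 CPM in control libraries at day 7. Later, at day 21, it had 0.748, 0.666, 0.398 and 0.983 CPM with roxadustat and 5.28, 6.66, 7.99 and 7.31 CPM in control libraries, 9.02-fold lower in roxadustat cells (-3.17 ± 0.19, adjusted p = 3.19e-14).

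**Figure D4:**
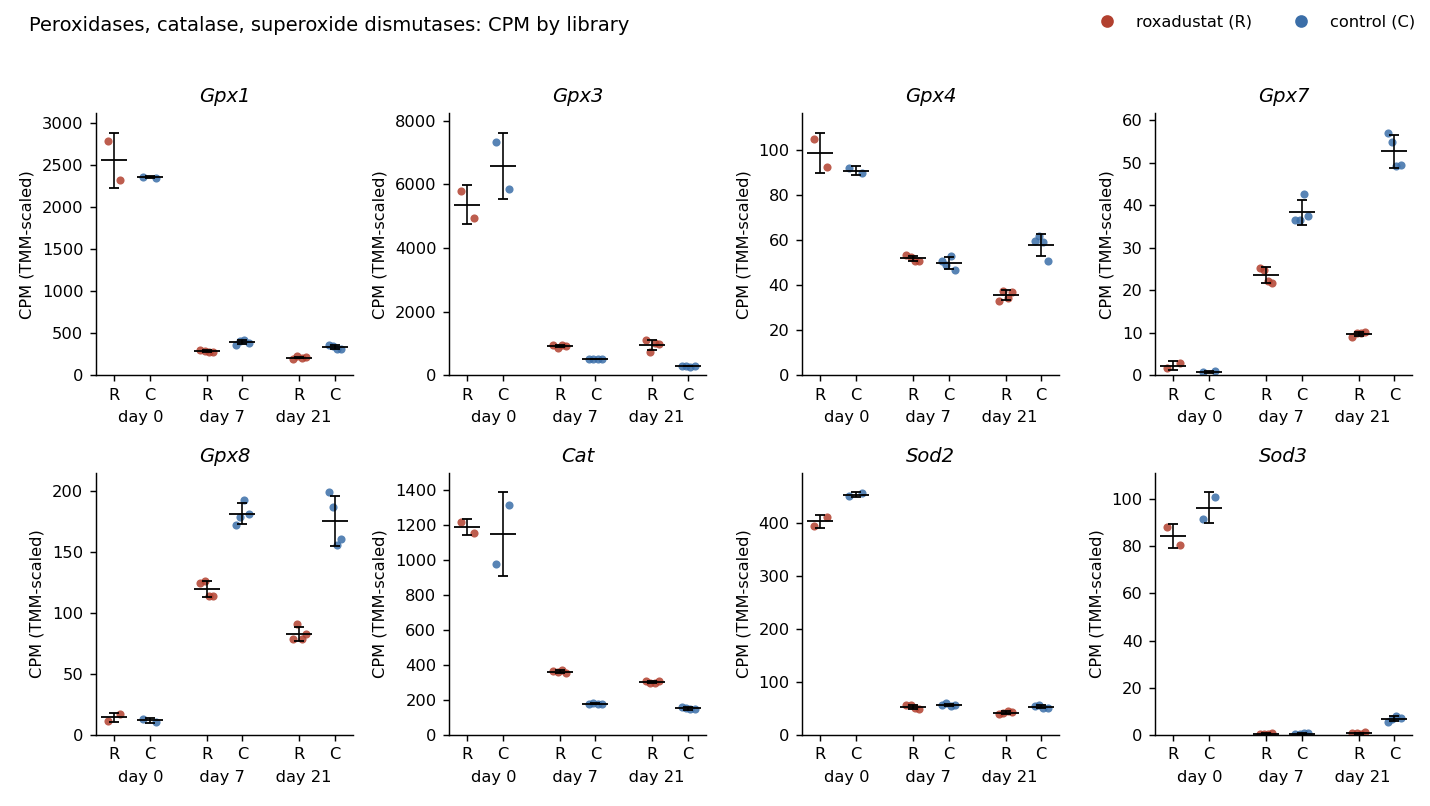
CPM by library (points), with mean and SD (black), of 5 glutathione peroxidases, catalase, Sod2 and Sod3 in roxadustat (R) and control (C) cells at day 0, day 7 and day 21. Gpx1, Gpx3, Cat, Sod2 and Sod3 are highest in fresh cells of both treatments, whereas Gpx7 and Gpx8 are lowest there and highest in cultured control libraries.

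In freshly isolated cells 6.82% of the 44 genes were called higher and 2.27% lower, beside 2.73% and 4.11% of all tested genes. Besides Me1 the calls were Prdx4 and Gpx7, both higher, and Srxn1, lower. Prdx4 had 29.7 and 29.8 CPM with roxadustat and 15.8 and 19.0 CPM in control libraries (0.77 ± 0.12, adjusted p = 0.000147), the opposite direction to its difference at day 21. Srxn1 had 154 and 164 CPM with roxadustat and 228 and 218 CPM in control libraries (-0.49 ± 0.07, adjusted p = 4.4e-05), opposite to its rise in culture. Gpx7 was near the limit of measurement, at 1.59 and 2.97 CPM with roxadustat and 0.649 and 0.987 CPM in control libraries, and its call ended without roxadustat replicate 2 (adjusted p = 0.201) or control replicate 1 (0.0579). Fibroblast markers summed to 1481 and 2476 CPM in roxadustat and 263 and 446 CPM in control libraries at day 0. The largest part was Col3a1, at 918 and 1590 CPM with roxadustat and 115 and 171 CPM in controls. Col1a1, Col1a2, Lum, Dpt and Fap were also higher with roxadustat, whereas Pdgfra, Pdgfrb, Dcn and Thy1 overlapped between treatments. Macrophage markers summed to 203 to 244 CPM in roxadustat and 105 to 115 CPM in control libraries. Red cell markers summed to 100.2 to 112 CPM in roxadustat and 43.8 to 55.5 CPM in control libraries, and endothelial markers to 129 to 134 CPM in roxadustat and 214 to 241 CPM in control libraries. Kidney epithelium markers summed to 2657 to 2795 CPM in roxadustat and 3342 to 3431 CPM in control libraries. Most of that sum was Cdh16, whereas Pax8 was higher with roxadustat, and Krt8 and Krt19 overlapped between treatments. The part of these markers in the calls was not tested. With 2 libraries a group these calls draw on the spread of all 20 libraries. In an edgeR fit of the 4 fresh libraries alone no member was called (0 higher and 0 lower), with 4 higher and 2 lower at an unadjusted p under 0.05. The adjusted p was then 0.0910 for Prdx4, 0.146 for Srxn1 and 0.269 for Gpx7. On all libraries DESeq2 called 3 higher and 3 lower. The counts were 7 higher and 4 lower without control replicate 2, 5 higher without roxadustat replicate 2, and 2 lower without control replicate 1, without roxadustat replicate 2 of day 21 or without control replicate 1 of day 21. Gsr, not called with all libraries, was called lower (-0.29) without control replicate 1 and higher (0.51) without control replicate 2.

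The effect of roxadustat differed between day 21 and day 7 for 30 of the 44 genes (interaction term, edgeR), where 44.7% of all tested genes differed. The log2 fold change was higher at day 21 for 10 of the 30 and lower for 20. All 4 genes of glutathione synthesis and recycling had the larger rise at day 21, by 1.90 ± 0.10 for Gclc, 1.76 ± 0.16 for Gsr, 1.60 ± 0.10 for Gclm and 0.35 ± 0.08 for Gss. Gsta3 (1.40 ± 0.16), Gpx3 (0.95 ± 0.13), Mgst3 (0.89 ± 0.20), Txnrd1 (0.83 ± 0.08), Me1 (0.30 ± 0.09) and Prdx5 (0.30 ± 0.09) followed, the last not called with control replicates 1 and 2 alone (adjusted p = 0.0945). Genes that went the other way were led by Sod3 (-3.17 ± 0.41), Gstm2 (-3.11 ± 0.15), Gpx7 (-1.72 ± 0.12), Gstm1 (-1.54 ± 0.18) and Cbr3 (-1.26 ± 0.13). For G6pdx (0.12 ± 0.08), Gsta4 (0.06 ± 0.13), Taldo1 (-0.04 ± 0.07) and Nqo1 (-0.46 ± 0.19) no difference between the days was called. Under scaling by total counts 19 were higher and 13 lower at day 21, and Gpx1, Sod1 and Sod2 turned direction. With control replicates 3 and 4 alone 14 were higher and 15 lower.

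**Figure D5:**
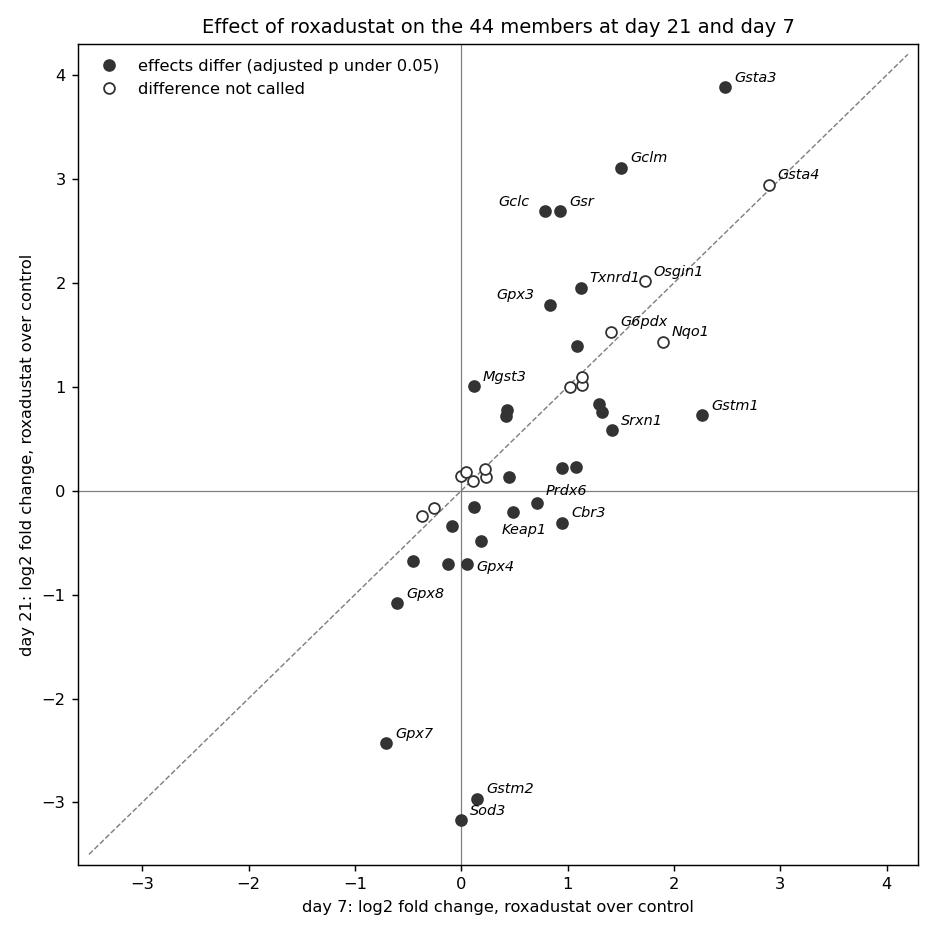
Log2 fold change of roxadustat over control at day 7 (x axis) and at day 21 (y axis) for the 44 genes, with the line of equal effect dashed. Filled points passed the test of the difference between the days. Gclc, Gclm, Gsr and Gsta3 lie above the line, and Sod3, Gstm2 and Gpx7 below it.

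Nearly all members were called between the days in each arm. Day 7 differs from day 0 in culture, in marker sums and, for roxadustat cells, in how the drug was given. These cannot be told apart here. At day 7 against day 0, 22 of the 44 were higher and 17 lower in roxadustat cells, where 37.1% and 37.6% of all tested genes were, and 16 were higher and 24 lower in control cells, against 37.0% and 39.5%. At day 21 against day 7, 7 were higher and 32 lower in roxadustat cells, against 28.6% and 32.9% of all tested genes, and 13 were higher and 25 lower in control cells, against 34.5% and 34.3%. With control replicates 3 and 4 alone the later counts in control cells were 10 and 27. Aox1 was nearly absent from fresh cells: its mean was 1.16, 44.9 and 80.2 CPM in roxadustat cells at day 0, day 7 and day 21, and 1.11, 20.4 and 39.5 CPM in control cells. In roxadustat cells at day 7 against day 0, G6pdx, Pgd and Tkt rose by 2.69 ± 0.08, 2.43 ± 0.09 and 2.05 ± 0.07 on the log2 scale. In control cells these 3 genes rose by 1.30 ± 0.08, 1.21 ± 0.08 and 0.54 ± 0.06. Gpx1, Gpx3, Cat, Sod2 and Gstt1 fell in both arms at day 7 against day 0, with log2 fold changes of -3.15, -2.55, -1.71, -2.92 and -4.73 in roxadustat cells and -2.58, -3.68, -2.69, -3.01 and -5.51 in control cells. Proximal tubule markers fell over the same step, to sums of 226 to 236 CPM in roxadustat and 115 to 119 CPM in control libraries at day 7 against sums of 29168 to 30801 CPM at day 0, and their part in these falls was not tested. In glutathione synthesis Gclm had a log2 fold change of 0.05 ± 0.08 in roxadustat cells (adjusted p = 0.572) and -1.42 ± 0.08 in control cells at day 7 against day 0, and of 0.51 ± 0.07 in roxadustat cells and -1.09 ± 0.07 in control cells at day 21 against day 7.

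Levels between genes can be compared per length of exon, as CPM per kilobase (RPKM). In fresh cells Gpx3 led the 44 genes, at 2955 ± 334 RPKM in roxadustat and 3631 ± 572 RPKM in control cells, before Gpx1 (1770.5 ± 229 RPKM with roxadustat, 1631 ± 7.37 RPKM in controls) and Prdx5 (609.5 ± 25.7 RPKM with roxadustat, 677 ± 8.47 RPKM in controls; mean ± SD, n = 2 each). At day 7 the order in roxadustat cells was led by Gpx3 (505 ± 25.1 RPKM), Ephx1 (277 ± 11.5 RPKM), Gsta4 (247 ± 16.6 RPKM) and Txn1 (222 ± 10.04 RPKM), where Gsta4 and Txn1 lay within the sum of their SDs. In control cells at day 7 Txn1, Gpx3 and Gpx1 lay within their spread of each other, at 287 ± 17.5, 282 ± 5.27 and 273 ± 17.6 RPKM. At day 21 Gpx3 still led in roxadustat cells (529 ± 87.0 RPKM), followed by Ephx1 (216 ± 8.34 RPKM), whereas control cells were led by Gpx1 (233 ± 17.9 RPKM), Ephx1 (186 ± 12.2 RPKM) and Gpx8 (168 ± 19.8 RPKM), and the last 2 overlapped within their spread.

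Beyond the 44 genes, 72 further genes of the same pathways were examined, of which 69 were tested. At day 0 with roxadustat 3 were higher (4.35%) and 14 lower (20.3%), beside 2.73% and 4.11% of all tested genes. At day 7 33 were higher (47.8%) and 16 lower (23.2%), beside 24.1% and 23.6% of all tested genes. For day 21 the counts were 28 higher (40.6%) and 26 lower (37.7%), beside 30.0% and 32.9%. The same shares of all tested genes apply to each group of these 69. Among 6 NRF2 partners and competitors, 2 were higher and 1 lower at day 7, and 1 higher and 3 lower at day 21. At day 0, 3 of the 6 were lower and none higher. The 11 tested further transferases and peroxidases had 10 higher and 1 lower at day 7, and 8 higher and 1 lower at day 21. Thioredoxin and methionine sulfoxide repair, with 11 genes, had 5 higher and 3 lower at day 7, and 4 higher and 5 lower at day 21. Of 13 genes of glutathione and cystine handling, 5 were higher and 3 lower at day 7 (38.5% and 23.1%), and 7 higher and 4 lower at day 21 (53.8% and 30.8%). Slc7a11, for the cystine transporter subunit that supplies cysteine for glutathione, had 106 ± 3.93 CPM with roxadustat and 30.5 ± 1.24 CPM in controls at day 7 (1.80 ± 0.06) and 132 ± 8.82 CPM with roxadustat against 9.30 ± 0.717 CPM in controls at day 21 (3.83 ± 0.07). Ggt1, the gamma-glutamyl transferase of the tubule brush border, had 45.1 ± 2.87 CPM with roxadustat and 7.00 ± 0.81 CPM in controls at day 7 and 59.7 ± 1.93 CPM with roxadustat against 0.343 ± 0.0967 CPM in controls at day 21. Against these, Slc3a2, for the heavy chain that pairs with Slc7a11, was lower at day 7 (-0.34 ± 0.05) and higher at day 21 (0.25 ± 0.05). Ggct, for an enzyme of glutathione breakdown, was not called at day 7 (-0.26 ± 0.12) and lower at day 21 (-0.94 ± 0.13). Both were chosen after their values were seen. Of 12 other enzymes and transporters known as NRF2 targets, 10 were higher and none lower at day 7 (83.3% higher), and 6 higher and 4 lower at day 21. At day 0, 3 of the 12 were lower (25.0%) and none higher. Abcc4, an efflux pump, had a log2 fold change of 1.54 ± 0.06 at day 7 and 3.80 ± 0.06 at day 21, and Hmox1, for heme oxygenase 1, of 2.86 ± 0.09 and 2.08 ± 0.09. Fresh cells went the other way in Hmox1, with 62.9 and 58.7 CPM with roxadustat and 211 and 222 CPM in control libraries. Lower levels at day 21 included Pir, at 4.39 to 5.47 CPM with roxadustat and 14.1 to 16.6 CPM in controls. Ftl1 then had 153 to 168 CPM with roxadustat and 225 to 301 CPM in controls. Of 11 NADPH sources and pentose phosphate genes outside the set 1 was higher and 4 lower at day 7 (9.09% and 36.4%), and 1 higher and 5 lower at day 21 (9.09% and 45.5%). Among them Idh1, for cytosolic isocitrate dehydrogenase, was at 0.16 ± 0.10 (not called) and -1.62 ± 0.10, and H6pd, the endoplasmic reticulum counterpart of G6pdx, at -0.07 ± 0.07 (not called) and -1.07 ± 0.07. Of 5 tested oxidant sources 4 were lower at day 7 (80.0%), and 4 lower and 1 higher at day 21 (80.0% and 20.0%). Cybb, the phagocyte oxidase subunit, had 0.453 ± 0.133 CPM with roxadustat and 8.99 ± 1.14 CPM in controls at day 7, beside macrophage marker sums of 16.9 to 18.7 CPM with roxadustat and 346 to 354 CPM in controls. Xdh, for xanthine dehydrogenase, had 38.6 ± 1.92 CPM with roxadustat and 382 ± 5.46 CPM in controls at day 21 (-3.31 ± 0.09).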

How the data were processed

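Polyadenylated RNA of 20 libraries (6 groups of treatment and day) was sequenced without strand, per the labels' protocols. The deposited values are raw read counts per gene, with Ensembl gene IDs. Per the submitters' processing notes, STAR 2.5.2a, featureCounts 1.5.0-p1, bcl2fastq and the genome build mm10 were used, and the annotation release is not given in the sources used here. Of the 47729 gene IDs, 47310 matched GENCODE M21 (GRCm38), which gave symbols, coordinates and exon lengths.

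Counts were filtered with filterByExpr and scaled by TMM, and 1 edgeR 4.0.16 quasi-likelihood fit (R 4.3.3) covered all 20 libraries, so that the spread was shared. Contrasts were tested with Benjamini-Hochberg adjustment over 18731 genes at 0.05, and each SE was derived from the log2 fold change and its F statistic (F being the squared ratio of change to SE). The fit was checked on simulated counts. Members and lists were chosen with earlier results of these data known. Values in every library are given for Nfe2l2, Keap1, Nqo1, Gclc and G6pdx, and for the 4 called members with the largest rise and the 4 with the largest fall in each treatment comparison, provided the higher group reached 5 CPM; others were named after their values were seen. Replicate numbers did not pair libraries of different groups (correlations of their deviations from -0.18 to 0.06). Alternatives were 3 other scalings, no filter or a mean of at least 1 CPM, DESeq2 1.42.0, a replicate block, fits of the compared groups alone, and each library left out in turn. Fits with either pair of control libraries at day 21 alone were added after seeing the data. Promoter windows came from RefSeq (GRCm38.p6), and Gclc, Gsr, Prdx6, Sod3 and Gsta4 had none in the table used.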

Additional observations from a re-analysis of the deposited data

Results flagged for a closer look

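Of 176 groups of 4 libraries examined, a library stood far from the other members of its group in 3, where 1 in 20, or 8.8, are expected by chance. Keap1 had 48.5 CPM in roxadustat replicate 3 at day 21, beside 45.5 to 45.8 CPM in the other roxadustat libraries. Txnrd1 had 253 CPM in control replicate 3 at day 21, beside 261 to 262 CPM in the other control libraries. Gpx7 had 42.7 CPM in control replicate 3 at day 7, beside 36.6 to 37.4 CPM in the other control libraries.

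The effect of roxadustat, as a log2 fold change, differed between day 21 and day 7 in 30 members by the interaction term of the edgeR fit, where 44.7% of all tested genes differed. The difference was positive for Gclc (1.90), Gsr (1.76), Gclm (1.60), Gsta3 (1.40), Gpx3 (0.95), Mgst3 (0.89), Txnrd1 (0.83), Gss (0.35), Me1 (0.30) and Prdx5 (0.30). It was negative for Sod3 (-3.17), Gstm2 (-3.11), Gpx7 (-1.72), Gstm1 (-1.54), Cbr3 (-1.26), Gstt1 (-0.85), Srxn1 (-0.84), Prdx6 (-0.82), Gpx4 (-0.76), Ephx1 (-0.74), Keap1 (-0.69) and Mgst1 (-0.66), and for Prdx4 (-0.58), Pgd (-0.57), Gpx8 (-0.48), Tkt (-0.46), Gstm5 (-0.32), Sod1 (-0.27), Sod2 (-0.26) and Gpx1 (-0.22). Differences of Gpx1, Sod1, Sod2, Gstm5 and Gstt1 lost their call under several alternatives.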

How the results depend on the processing

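Counts of members called at day 0 moved most. Against 3 higher and 1 lower, the lower count was 3 without the filter, with a mean of at least 1 CPM, with DESeq2 and with either control pair of day 21 alone, and both counts were 0 with the fresh libraries fitted alone. Leaving out single libraries gave 3 to 7 higher and 1 to 4 lower at day 0, and changed no other count of members by over 1.5 times. At day 21 scaling by total counts gave 33 higher and 7 lower, against 24 and 13. That scaling shifted the median log2 fold change of all genes by 0.34 at day 21, by 0.43 in roxadustat and 0.42 in control cells at day 7 against day 0, by -0.19 in control cells at day 21 against day 7, and by 0.28 in the difference of effects.

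Signs turned under it, with values that lie below the shift of all genes in the same comparison, for Keap1 (0.14), Txn1 (0.10), Prdx3 (0.18), Prdx6 (0.23), Sod1 (0.19), Sod2 (0.0062) and Cbr3 (0.041) at day 21, and for Keap1 (0.40), Prdx1 (0.42), Gstm2 (0.31) and Taldo1 (0.24) in control cells at day 7 against day 0. They also turned for Srxn1 in control cells at day 21 against day 7 (-0.046, above the shift), and, with values below the shift, in the difference of effects for Prdx1 (0.26), Prdx2 (0.27), Gpx1 (0.058), Cat (0.26), Sod1 (0.0074), Sod2 (0.025) and Taldo1 (0.24). Leaving out roxadustat replicate 2 of day 0 turned Gsta3 at day 7 against day 0 in roxadustat cells (-0.28), where leaving out replicate 1 gave 0.41, and leaving out control replicate 1 of day 0 turned Gsr in roxadustat against control at day 0 (-0.29), where leaving out control replicate 2 gave 0.51. The causes of the last 2 were not tested.

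With a replicate block, 28 members were higher at day 7 (27 without it), 23 were higher in roxadustat cells at day 7 against day 0 (22 without it) and 29 differed in effect (30 without it), and the other counts did not move. The best partner of a library was not always the one of its own number. Day 0 rests on 2 libraries a group, and genes under 5 CPM, such as Gpx7 at day 0, Sod3 at day 7 and Txnrd2, are measured with few counts.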
